A study of Drosophila melanogaster with 6 samples.

Results

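The borders described here are edges of topologically associating domains (TADs) that the pooled antennal disc list has and the pooled eye disc list lacks. They were selected on the positions of the borders themselves. Every TAD start and end of the authors' pooled antennal disc list was taken. Where one TAD stopped no more than 5 kb before the following one began, the mean of these positions was used. A border was kept when the pooled eye disc list, treated the same way, had none within 5 kb. This left 370 antennal-only borders of 1238 pooled antennal borders, or 29.9%. Of the 370, 350 had an antennal TAD on both sides and 20 on 1 side, next to a gap or at the end of the calls on an arm. The other 868 are called shared borders, and 279 of the 1146 pooled eye borders were eye-only by the same rule.

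The data are Hi-C maps of antennal and eye discs of *Drosophila melanogaster* larvae in the third instar, both of genotype yw;+;+ and otherwise untreated. The 2 kinds of disc were cut apart by hand, and each library came from 125 discs of 1 kind. Lists from antennal disc libraries 2 and 3 and eye disc libraries 1, 2 and 3 were used. Antennal disc library 1 was not analysed here, although the pooled list is labelled as made from all replicates. A list from whole discs averages over all their cells, and the files hold no expression, so the labelled tissues could not be checked against marker genes.

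A TAD is a stretch of chromosome whose DNA touches itself more often than it touches the neighbouring stretch, and a border limits which enhancers and promoters easily meet. In flies, many borders lie at active genes and at sites bound by insulator proteins, and the borders of neighbouring tissues are largely the same. The eye and antennal discs develop from 1 joined epithelium in which selector genes such as *hth* and *ey* set the antennal or the retinal fate.

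The pooled antennal list held 1212 TADs with a median width of 95 kb, and the pooled eye list held 1122 TADs with a median width of 105 kb. All positions were multiples of 5000 bp. Antennal disc library 3 and eye disc library 1 stood apart from the other libraries: neither had a TAD on chromosome 4, and their lists on arms 2R and 3R began later. The TADs of eye disc library 1 also ended early on 3L, at 23965 kb. In all, 25 antennal-only borders lay beyond the stretch that antennal disc library 3 covered, 16 of them on 3R. For eye disc library 1 this was true of 55, of which 24 were on 3L and 18 on 3R, against 2 to 4 borders in the other libraries. Sequencing depth is unknown, and no score or contact number came with the borders.

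Antennal-only borders were found more often in the antennal than in the eye libraries, as their choice would have it, but few were found in each antennal library and absent from each eye library. A library was said to hold a border when its own nearest border lay within 5 kb. Antennal disc library 2 held 252 of the 370 (68.1%) and antennal disc library 3 held 197 (53.2%). Their mean was 60.7% ± 10.5 (SD, n = 2). Eye disc libraries 1, 2 and 3 held 98 (26.5%), 76 (20.5%) and 61 (16.5%). Their mean was 21.2% ± 5.03 (SD, n = 3). The 2 sets of libraries did not overlap. Since the pooled lists that chose these borders were made from the same libraries, this is a description and no test was made of it.

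Shared borders were held more evenly. They were found in 86.4% and 76.4% of cases by antennal disc libraries 2 and 3, a mean of 81.4% ± 7.09 (SD, n = 2), and in 61.4%, 93.3% and 86.1% by eye disc libraries 1, 2 and 3, a mean of 80.3% ± 16.7 (SD, n = 3). Eye disc library 1 was thus the lowest of the 5 at shared borders and the highest eye library at antennal-only borders. Eye-only borders were held in 19.0% and 21.5% of cases by antennal disc libraries 2 and 3, and in 36.6%, 72.4% and 71.0% by eye disc libraries 1, 2 and 3. For scale, between 12.8% and 14.2% of all positions in pooled antennal TADs lay within 5 kb of a border, depending on the library. Over the borders that lay inside the stretch a library covered, antennal disc library 3 held 57.1% and eye disc library 1 held 31.1%. The widest TADs of these libraries were 940 and 2365 kb, against at most 500 kb in the others. Borders inside such wide TADs counted as covered.

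**Figure D1:**
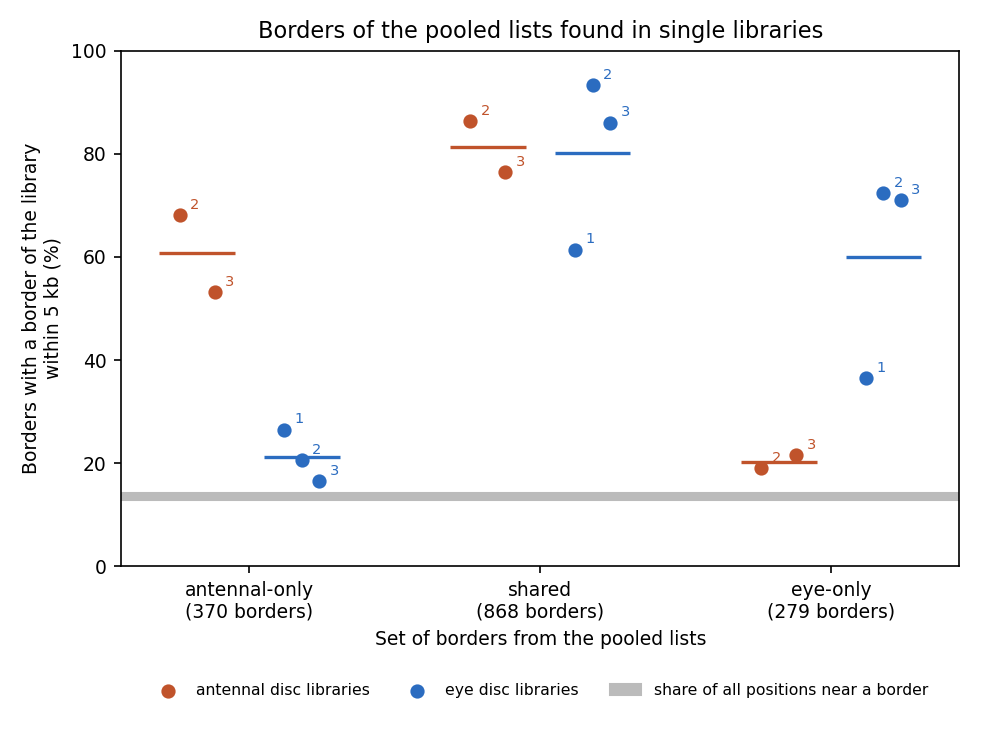
Percentage of borders (vertical axis) that each library held within 5 kb, for antennal-only, shared and eye-only borders of the pooled lists. Points are libraries with their replicate number, lines are means, and the grey band spans 12.8% to 14.2%, the share of all positions that lie that close to a border of a library. The antennal libraries lie at 68.1% and 53.2% for antennal-only borders, above all 3 eye libraries.

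Library by library, 149 antennal-only borders were in both antennal libraries, 151 in 1 of them and 70 in neither. Of the 370, 185 were in no eye library, 138 in 1, 44 in 2 and 3 in all 3. Eye disc library 1 was the only eye library to hold a border in 64 of those 138 cases, eye disc library 2 in 45 and eye disc library 3 in 29. The strictest class, in both antennal libraries and in no eye library, had 57 borders, or 15.4% of the antennal-only borders. Among all 1238 pooled antennal borders that class had 61 members, or 4.93%, and the rule itself fixes most of this difference. In the opposite direction, 29 of the 279 eye-only borders were in all 3 eye libraries and in neither antennal library.

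The size of the strict class rests on which libraries must concur. It had 107 borders without antennal disc library 3, 89 without antennal disc library 2 and 91 without eye disc library 1. With only antennal disc library 2 and eye disc libraries 2 and 3, the libraries whose lists cover chromosome 4, there were 158. Absence was also counted where a library had no TADs, and within the stretch between the first and last border of every list there were 52. The borders at 3015 and 3515 kb on 2R remain in that count. They lay 935 and 435 kb from the nearest border of eye disc library 1. These choices of libraries and of stretch were made after seeing the data.

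The distance to the nearest pooled eye border ranged from 7.5 to 215 kb, with a median of 35 kb and quartiles of 15.6 and 60 kb. The antennal-only borders closest to the 5 kb limit were 60 that lay 7.5 to 10 kb away. Antennal disc libraries 2 and 3 held 81.7% and 63.3% of these, and eye disc libraries 1, 2 and 3 held 40%, 36.7% and 30%. On the other side of the limit, 261 shared borders lay 5 kb from an eye border. The antennal libraries held 83.5% and 70.9% of those, and the eye libraries held 57.1%, 90.4% and 80.1%.

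At 10 kb, antennal-only and eye-only borders often came in pairs. An eye-only border lay exactly 10 kb away from 57 antennal-only borders and within 25 kb of 136 (36.8%). Such a pair may be read as 1 border set at slightly different bins in the 2 lists or as 2 borders, and the lists do not tell these apart. At the other end, 217 antennal-only borders (58.6%) lay over 25 kb from every pooled eye border, and 88 lay over 60 kb away. Of these 88, antennal disc libraries 2 and 3 held 63.6% and 50%, and eye disc libraries 1, 2 and 3 held 31.8%, 21.6% and 11.4%.

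**Figure D2:**
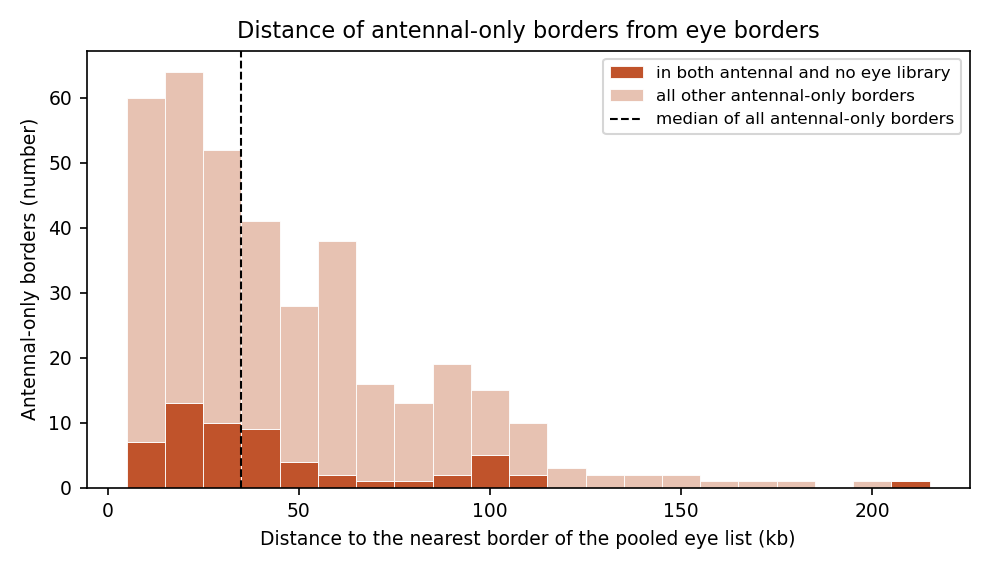
Number of antennal-only borders (vertical axis) by distance in kb to the nearest border of the pooled eye list, in classes of 10 kb. The dark part of each bar is the 57 borders found in both antennal and no eye library, and the dashed line is the median of all 370, at 35 kb. The dark part runs from 10 to 215 kb and is present in the nearest class as well as among the borders about 100 kb away.

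All arms contributed. Antennal-only borders made up 29.1% of pooled antennal borders on 2L (59 of 203), 31.2% on 2R (72 of 231), 33.5% on 3L (91 of 272), 29.7% on 3R (93 of 313) and 25.5% on X (53 of 208). Chromosome 4 had 2 of 11. Per megabase of antennal TAD, the density ran from 2.03 on chromosome 4 and 2.29 on X to 3.32 on 3L.

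Almost every antennal-only border cut an eye TAD, which the rule fixes for the most part. A position over 5 kb from every eye border lies in an eye TAD unless it falls in a gap or beyond the calls. The pooled eye list had 18 gaps of over 5 kb. The share of all positions inside eye TADs was not computed. Of the 370, 366 lay inside a TAD of the pooled eye list, and together they cut 310 of the 1122 eye TADs, or 27.6%. A single border cut 261 of these TADs, 42 held 2 borders and 7 held 3. The other 4 borders lay outside every eye TAD: at 155 and 225 kb on 2L, before the first eye TAD, and at 25080 kb on 2R and 23425 kb on X, beyond the last.

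The eye TADs that were cut were wide. Their median width was 140 kb (quartiles 100 and 200 kb), against 90 kb (quartiles 55 and 135 kb) for the 812 that held no antennal-only border. The share that was cut was 2.92% of TADs under 50 kb (4 of 137), 16.4% of those of 50 to under 100 kb (62 of 379), 35% of those of 100 to under 200 kb (163 of 466) and 57.9% of those of 200 kb or more (81 of 140). A wider TAD offers more places for a border, and per megabase the order was the same but flatter above 50 kb. The density was 0.8 borders per megabase under 50 kb, then 2.43, 2.92 and 3.11 in the wider classes. Borders of 1 list lie at least 25 kb apart within a row of TADs, a limit that does not hold between an antennal and an eye list. Its part in the low share of narrow TADs was not tested.

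**Figure D3:**
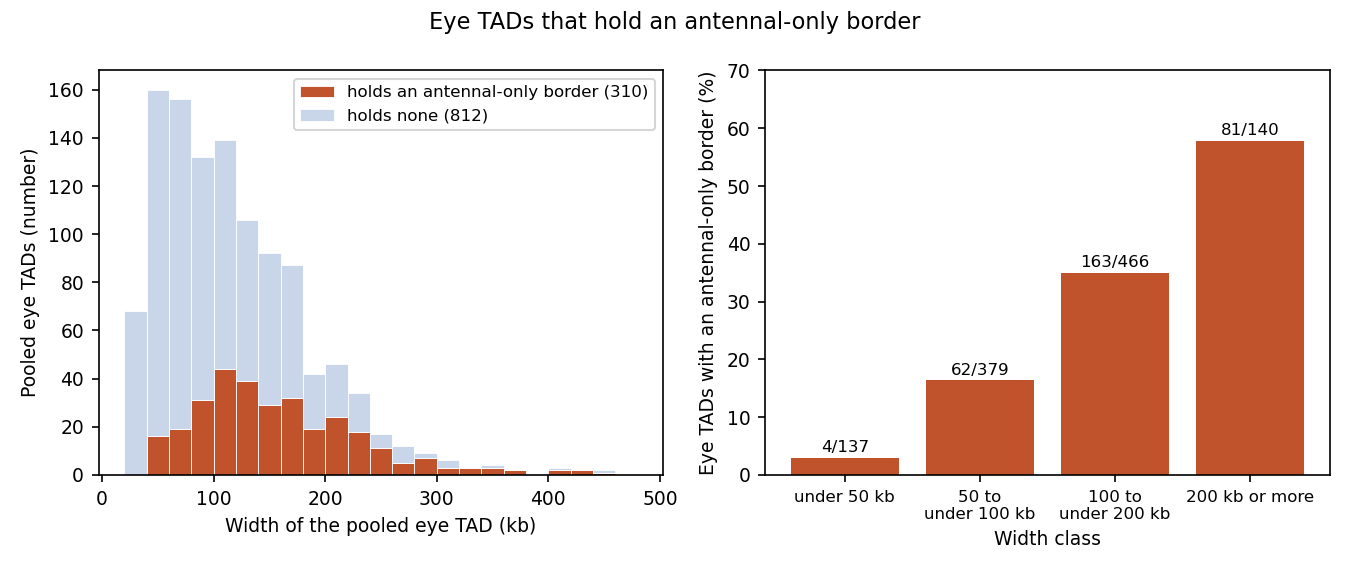
Left, number of pooled eye TADs (vertical axis) by width in kb, in classes of 20 kb, with those that hold an antennal-only border in dark. Right, percentage of eye TADs (vertical axis) that hold an antennal-only border, by width class, with the numbers above the bars. The percentage runs from 2.92% under 50 kb to 57.9% at 200 kb or more.

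A cut could add a border inside an eye TAD that otherwise kept its ends, or go with a shift of the ends too. Of the 310 cut eye TADs, 112 (36.1%) had both ends within 5 kb of a pooled antennal border, 156 had 1 end and 42 had neither. Among eye TADs without an antennal-only border, 547 of 812 (67.4%) had both ends. This contrast is partly built in, because antennal borders lie at least 25 kb apart within a row of TADs. An antennal-only border 10 kb from the end of an eye TAD leaves no place in its row for one at that end. How much of the contrast this makes up was not tested. In 101 TADs a single antennal-only border divided a domain whose ends were kept. These had a median width of 170 kb, and the median narrower and wider pieces were 55 and 105 kb. Only 19 of the 101 were free of inner borders in all 3 eye libraries, 59 had an inner border in both antennal libraries, and 8 met both conditions. A library also counted as free of inner borders where it had no TADs. Eye disc library 1 had none at 1 of the 8, on 3L from 25655001 to 25740000. Nor had it any at 1 of the 19 on chromosome 4, from 485001 to 660000.

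The antennal TADs that ended at these borders were close in width to the others, with no single direction over the lists. In the pooled antennal list the 614 TADs with an end within 5 kb of an antennal-only border had a median width of 95 kb, and the other 598 had 100 kb. The corresponding medians were 95 and 100 kb in antennal disc library 2 and 95 and 90 kb in antennal disc library 3.

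The listed developmental regulators at antennal-only borders were few in number, and they included a main selector of antennal fate. A gene counted when its annotated span came within 5 kb of a border, which was true of 821 of 17684 annotated genes, or 4.64%. Shared borders, which are more numerous, had 2483 genes (14.0%) within 5 kb. Long genes are met more often, and 67 of the 307 protein-coding genes of 50 kb or longer (21.8%) counted. Of 23 antennal identity genes, 3 did (13.0%), namely *hth*, *tio* and *bab1*, and none of the 23 lay at a shared border. With 23 genes, these counts stand beside 4.64% and 14.0% of all genes as a description only. The gene lists were also chosen with earlier results of these data known. *hth* and *bab1* are longer than 50 kb. Of 12 retinal determination genes, *tio* alone counted (8.33%), against 2 at shared borders (16.7%).

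*hth* (homothorax) encodes the homeodomain partner of Extradenticle, which is needed for antennal identity and restrains eye development. It spans 132 kb of 3R, from 10507561 to 10639568 (dm6). Its TAD in the pooled eye list ran from 10420001 to 10680000, and eye disc libraries 2 and 3 had no border inside the gene. The pooled antennal list had 2 borders in it, at 10540 and 10580 kb. The second, with the window chr3R:10575001-10585000, was 5 kb from a border in each antennal library and 45, 100 and 100 kb from the nearest border of eye disc libraries 1, 2 and 3. The first was within 5 kb of a border in antennal disc library 3 and in eye disc library 1, and 35 kb from one in antennal disc library 2. The border at 10580 kb thus belongs to the strict class, which is defined by these same libraries, and the one at 10540 kb does not. Antennal disc libraries 2 and 3 had their borders at 10575 and 10585 kb, to either side of the pooled position.

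*tio* (tiptop) encodes a zinc finger protein related to Teashirt, a regulator of eye and trunk development, and it stands in both the antennal and the retinal list. The border at 22020 kb on 2L (chr2L:22015001-22025000) fell within this 6.53 kb gene and within *lncRNA:CR33987*. It divided an eye TAD of 200 kb, both ends of which the antennal list kept, close to its middle. The antennal libraries had a border 5 kb to either side, at 22015 and 22025 kb, and the nearest borders of eye disc libraries 1, 2 and 3 were 15, 95 and 90 kb away. Eye disc library 1 thus had a border near this place too, outside the gene.

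*bab1* (bric a brac 1), which patterns distal leg and antennal segments, was the weakest of the 3. Its border at 1040 kb on 3L lay 10 kb from a pooled eye border at 1050 kb. Antennal disc libraries 2 and 3 had it at 1035 kb, and eye disc libraries 1, 2 and 3 had theirs at 1040, 1045 and 1050 kb. All 5 libraries thus had a border at the edge of the gene, 15 kb apart at most.

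Of 12 Hox complex genes only *Scr* (8.33%) was within 5 kb of an antennal-only border, and 1 of the 12 was at a shared border. The border at 6820 kb on 3R (chr3R:6815001-6825000) lay between *Dfd* and *Scr*, selectors of head and labial-prothoracic segments. It sat in a row of 4 lysine tRNA genes and 2 genes for the 7SL RNA of the signal recognition particle. The annotated span of *Scr* runs from 6823120 to 6849981. The gene table has no strand, so it does not tell which of these ends is the transcription start. Antennal disc library 2 had a border at this very position and antennal disc library 3 had one 5 kb away. The nearest borders of eye disc libraries 1, 2 and 3 were 90, 55 and 55 kb away. In the pooled eye list *Dfd*, *Scr*, *ftz* and the near end of *Antp* shared a TAD of 150 kb. The pooled antennal list kept both ends of that TAD but parted *Dfd* from the others. It is 1 of the 8 TADs divided in this way in both antennal libraries and free of inner borders in all 3 eye libraries. Eye disc library 1 also lacked the border at the left end of that TAD. Its own TAD ran from 200 kb before to 90 kb after the border at 6820 kb.

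Among 30 genes of photoreceptor development and eye patterning, *pros* and *pnt* lay at antennal-only borders (6.67%) and 6 lay at shared ones. *pros* (prospero) encodes a homeodomain protein of cone cells, R7 photoreceptors and neuroblasts. Its antennal border at 11350 kb on 3R fell inside the gene and inside the kinase genes *KP78a* and *KP78b*, which are annotated with the same span. Antennal disc library 2 had it at 11350 kb and library 3 at 11345 kb. The eye lists also had a border within *pros*, but elsewhere: at 11370 kb in eye disc library 1, 11400 kb in library 2, 11405 kb in library 3 and 11400 kb in the pooled list. Each list thus had 1 border in *pros*, and the antennal and eye positions did not overlap.

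*pnt* (pointed), which encodes an ETS factor of the EGF receptor pathway, had a border 10 kb from the eye one. The antennal position was 23335 kb on 3R in the pooled list, and 23350 and 23340 kb in libraries 2 and 3. Eye disc libraries 1, 2 and 3 had 23345, 23350 and 23340 kb, so the 2 tissues overlapped. Among 49 Polycomb-bound regulators of other tissues, *pnt* and the pair-rule gene *eve* counted (4.08%). The border beside *eve* at 9985 kb on 2R was 0 and 5 kb from borders of antennal disc libraries 2 and 3, and 5, 0 and 30 kb from those of eye disc libraries 1, 2 and 3.

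**Figure D4:**
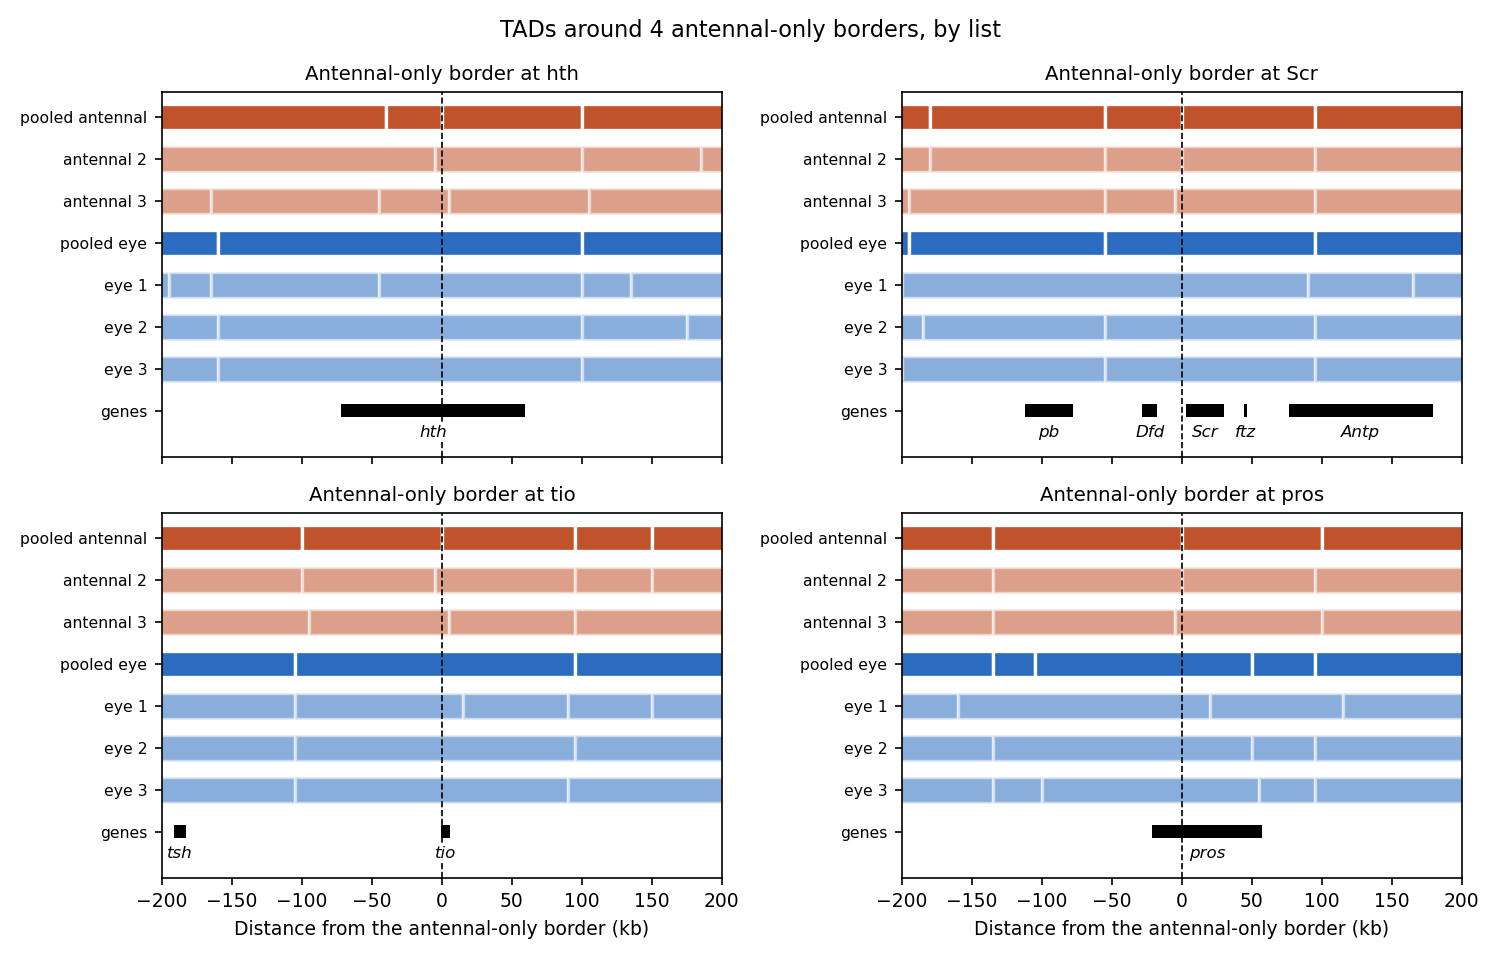
TADs of each list (bars, with gaps at the borders) around the antennal-only borders at *hth*, *Scr*, *tio* and *pros*, by distance from that border in kb (horizontal axis); black bars are genes. At *hth* and *Scr* both antennal libraries have a border within 5 kb of the dashed line. The nearest border of any eye library is 45 kb away at *hth* and 55 kb away at *Scr*. At *tio* eye disc library 1 has one 15 kb away, and at *pros* the eye libraries have theirs 20 to 55 kb away.

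The other gene groups are given beside the same shares of all genes, 4.64% at antennal-only and 14.0% at shared borders. No gene counted among 23 signalling ligands or among 21 insulator and architectural proteins, of which 3 and 4 lay at shared borders. Chemoreceptor genes counted 2 of 186 (1.08%, *Ir31a* and *Or85f*), against 12 (6.45%) at shared borders. Odorant binding protein genes counted 1 of 51 (1.96%, *Obp47b*) against 4 (7.84%), and cuticle protein genes 2 of 87 (2.3%, *Cpr62Ba* and *Cpr62Bb*) against 10 (11.5%). Cytosolic ribosomal protein genes counted 3 of 92 (3.26%; *RpL31*, *RpL34b* and *RpS27A*), against 24 (26.1%) at shared borders. Seminal fluid genes counted 4 of 48 (8.33%; *SP*, *Sfp70A4*, *Sfp36F* and *Acp95EF*), against 1 (2.08%) at a shared border, and were the only one of these 7 groups above 4.64%. *SP* and *Sfp70A4* lay at 1 border, so these are not independent cases.

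The 15 strict-class borders that lay farthest from a pooled eye border differed in how close the eye libraries came to them. The farthest, at 22475 kb on 3L in *CG11425*, was 215 kb from any pooled eye border, inside the widest eye TAD that was cut (455 kb). It lay 5 and 0 kb from borders of antennal disc libraries 2 and 3, and 20, 15 and 80 kb from those of eye disc libraries 1, 2 and 3. The same eye TAD held a strict-class border at 22345 kb in *Ten-m*, which encodes a teneurin of synaptic partner matching, at 0 and 0 kb in the antennal and 70, 35 and 30 kb in the eye libraries. A further antennal-only border at 22610 kb was held by antennal disc library 3 alone. No eye library left this TAD whole.

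In neuronal genes, a border at 18040 kb on X lay in *Sh*, the Shaker potassium channel gene. It was 5 and 0 kb from borders of antennal disc libraries 2 and 3 and 30, 105 and 105 kb from those of eye disc libraries 1, 2 and 3. A border at 20470 kb on 3R lay in *Gfrl*, a receptor gene of the GDNF receptor family, at 5 and 0 kb in the antennal and 55, 105 and 100 kb in the eye libraries. Both genes exceed 50 kb, and the pooled eye list had no border in either. Eye disc library 1 had borders in both genes, at 17960 and 20415 kb.

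At 13300 kb on 3L (chr3L:13295001-13305000) the border lay among *CG43147*, *CG42481*, *SP*, *Sfp70A4* and 6 lncRNA genes. *SP* encodes the sex peptide of seminal fluid. The border was 0 and 5 kb from those of antennal disc libraries 2 and 3 and 85, 90 and 90 kb from those of eye disc libraries 1, 2 and 3, and 85 kb from any in the pooled eye list. The eye TAD around it was 365 kb wide. A further antennal-only border in that TAD, at 13240 kb, was in antennal disc library 2 but 55 kb from the nearest of antennal disc library 3.

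On X a border at 18705 kb lay 2.49 kb from *CCKLR-17D1*, a drosulfakinin receptor gene, and within 5 kb of *Cyp308a1*. It was 0 and 5 kb from antennal and 60, 55 and 60 kb from eye library borders. It divided a 130 kb eye TAD that was free of inner borders in all 3 eye libraries. At 8955 kb on 2L a border lay in *CG31886* beside *C1GalTA*, a glycosyltransferase gene. Both antennal libraries had it at the same position, and the eye libraries had their nearest borders 50, 45 and 50 kb away. No eye list had a border within 40 kb of either place.

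For 4 of the 15, eye disc library 1 had a border 10 to 15 kb away while the nearest in the other 2 eye libraries was 35 to 110 kb away. They lay at 22020 kb on 2L (*tio*), at 20940 kb on X beside *Npc1b*, a midgut gene of the Niemann-Pick type C family, and at 22810 kb on 3L in the zinc finger gene *jim*, and at 12875 kb on 2L. The last of these had no gene within 5 kb, and the nearest, *lncRNA:CR44971*, was 33.1 kb away. At 10660 kb on 2R, 2.46 kb from *lncRNA:CR44452*, the eye libraries' distances were 20, 100 and 100 kb. The border at 25080 kb on 2R in *gol*, a RING ubiquitin ligase gene, and beside 3 alanine tRNA genes, is the end of the last antennal TAD on that arm and cuts no eye TAD.

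A stricter view asked for over 25 kb to every border of the pooled eye list and of each eye library, a limit chosen after values were seen. Of the 67 antennal-only borders that met it, 20 were in both antennal libraries, 30 in 1 and 17 in neither. Among the 20 are 9 of the 15 borders above, the one at *gol* included. The other 11 lay 30 to 45 kb from a pooled eye border. One of them, at 25250 kb on 3L in *lovit*, lay 1285 kb from the nearest border of eye disc library 1, beyond the end of that library's TADs. Every one of the 20 had a gene within 5 kb.

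Some of those 11 lay at genes of basic cell functions, named here after their values were seen. At 13170 kb on 2R the border lay by *Spt-I*, a serine palmitoyltransferase subunit gene, *GLaz*, a lipocalin gene, and *AGBE*, the glycogen branching enzyme gene. It was at the same position in both antennal libraries and 35 kb from the nearest border in each eye library. At 6190 kb on 3L it lay by *Tnpo* (transportin) and *Sf3b6* (a splicing factor), with the same distances. At 12170 kb on 2R it lay by *Oda* (ornithine decarboxylase antizyme), *SmD3* (a spliceosome core protein), *CCT5* (a chaperonin subunit) and the microRNA genes *mir-281-1* and *mir-281-2*. That border was 0 and 5 kb from antennal and 35, 35 and 35 kb from eye library borders. At 12800 kb on 3L it lay by the autophagy kinase gene *Atg1*, at 0 and 0 kb from antennal and 30, 30 and 35 kb from eye library borders.

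Eye TADs that held 2 or 3 antennal-only borders also contained genes of the lists. The 3 JAK/STAT ligand genes *upd1*, *upd2* and *upd3* share an eye TAD of 210 kb on X from 18145001 to 18355000. Antennal-only borders at 18220 and 18330 kb lay on either side of the 3 genes, and neither end of the eye TAD was an antennal border. The border at 18330 kb was 0 and 5 kb from those of antennal disc libraries 2 and 3 and 45, 35 and 15 kb from those of eye disc libraries 1, 2 and 3. The one at 18220 kb was 85 and 5 kb from antennal and 10, 75 and 75 kb from eye library borders. In both tissues, then, the pooled lists kept the 3 genes in 1 TAD.

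The BMP ligand gene *gbb* lies in an eye TAD of 210 kb on 2R that was cut at 23865 and 23980 kb, both beyond the gene. Both antennal libraries had both borders at the same positions. Eye disc libraries 1, 2 and 3 were 20, 25 and 25 kb from the first and 5, 75 and 50 kb from the second. *run*, the pair-rule transcription factor gene, lies in a 410 kb eye TAD on X cut at 20710 and 20940 kb. The border at 20710 kb was 5 and 35 kb from those of antennal disc libraries 2 and 3 and 5, 50 and 0 kb from those of eye disc libraries 1, 2 and 3. No eye library left that TAD whole. The photoreceptor homeobox gene *Pph13* lies in a 120 kb eye TAD on 2L cut at 485 and 545 kb, and eye disc library 1 held both of these borders. An eye TAD of 165 kb on 3L, cut at 27195 and 27245 kb, holds *RpL15* and, across its start, *vtd*, which encodes the Rad21 subunit of cohesin. The border at 27195 kb was 15 and 55 kb from those of antennal disc libraries 2 and 3, and 45 and 10 kb from those of eye disc libraries 2 and 3. The one at 27245 kb was 0 and 15 kb from antennal and 5 and 0 kb from these eye library borders, so both eye libraries that cover the place held it. Eye disc library 1 has no TAD within 3230 kb.

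Gene ends were less dense at antennal-only borders than at shared borders, although denser than at an average position. Gene ends stand here for transcription starts and stops, because the gene table has no strand. Within 5 kb of an antennal-only border there were 3.11 gene ends on average, against 4.2 at shared borders, 2.73 at eye-only borders and 2.67 over all positions in pooled antennal TADs. The ratio of antennal-only to shared was 0.74, and 0.73 for protein-coding genes. In the 6 pairs of an antennal and an eye library, antennal borders without an eye partner had 0.60 to 0.86 times the gene ends of those with one, below 1 in 6 of 6 pairs. The mean of the 2 antennal libraries was 0.68 ± 0.0535 (SD, n = 2). The pairs share libraries, borders are not replicates, and no test was made.

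**Figure D5:**
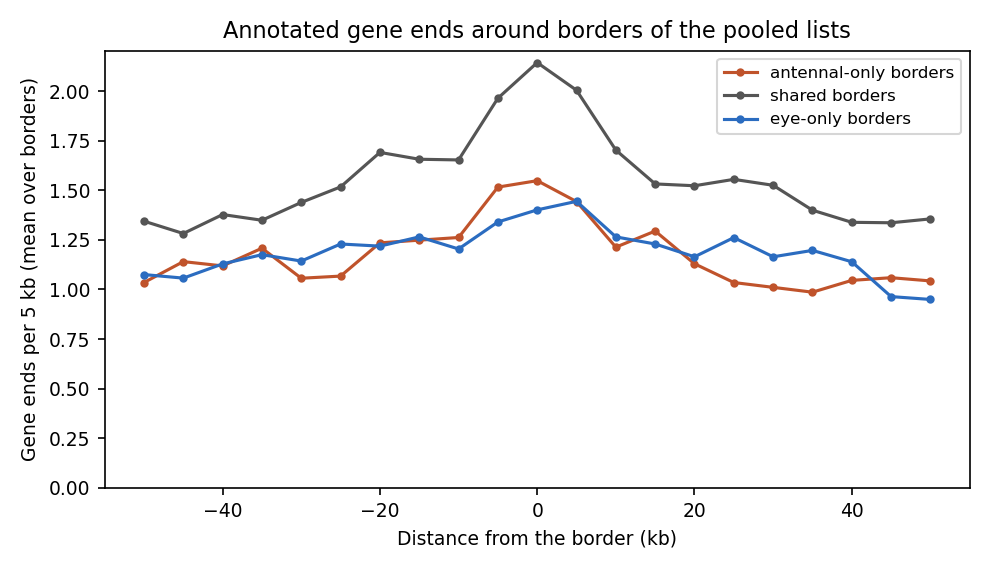
Mean number of annotated gene ends per 5 kb (vertical axis) by distance from the border in kb (horizontal axis), for antennal-only, shared and eye-only borders. All 3 sets have their highest values within 5 kb of the border, at 1.55 for antennal-only and 2.14 for shared borders at the border itself. The antennal-only line stays below the shared one at both 50 kb ends, at 1.04 against 1.34 on the left and 1.04 against 1.36 on the right.

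The difference went with how many libraries held a border. Antennal-only borders in both antennal libraries had 4.13 gene ends, those in 1 had 2.58 and those in neither had 2.09. Shared borders had 4.88, 2.90 and 1.59 in the same classes. The 57 strict-class borders had 4.93 gene ends (3.47 protein-coding), against 5.16 (3.99 protein-coding) at the 399 shared borders that all 5 libraries held. What part the number of libraries had in the lower density was not tested. In total, 36.5% of antennal-only borders had no gene end within 5 kb, against 20.6% of shared borders, and 63 had no gene there at all. Over all positions in pooled antennal TADs the share without a gene end was 37.6%, close to that of antennal-only borders.

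Antennal-only borders lay inside long genes more often than shared borders did. They fell within an annotated gene in 251 of 370 cases (67.8%), against 625 of 868 (72.0%) for shared borders. Within a protein-coding gene of 50 kb or longer there were 81 antennal-only borders (21.9%), against 103 shared borders (11.9%) and 51 eye-only borders (18.3%). The share was 18.1% for antennal-only borders in both antennal libraries, against 7.34% for shared borders in both, and 27.1% against 29.4% for those in neither. The share of all positions inside such genes was not computed, so these values have no background beside them. Several of the 81 lay in 1 gene, *Myo81F* on 3R, between 585 and 2365 kb. Antennal disc library 3 and eye disc library 1 had no TADs there. A tRNA gene lay within 5 kb of 7 antennal-only borders (1.89%) and of 16 shared borders (1.84%). The surroundings were also poorer in genes, with 11.8 genes per 100 kb around antennal-only borders, 15.6 around shared borders and 12.0 around eye-only borders.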

How the data were processed

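The submitters' processing notes name Bowtie2 2.3.4.2 and the dm6 genome. For the TAD caller, its bin size and the pooling of replicates, details were not given in the sources used here. Deposited files hold other values than counts or signals, namely TAD starts and ends in bp, 1 list for each of the 5 libraries used and 1 per tissue; the authors made the tissue lists from all replicates, per the labels. Depth is unknown, so no counting interval is given and the precision depends on 2 antennal and 3 eye libraries.

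Borders, matches and gene counts were computed with Python 3.11.15, numpy 2.4.6 and pandas 2.3.3, and the border rule was tested on simulated data. Gene spans were those of RefSeq for Release 6, on which dm6 is based: 17684 genes on 6 arms, of which 13922 code for protein. The table has no strand and no sequence, so no sequence is shown. Prefix lists take a symbol followed by a digit. *h* and *Z4* found no match under these symbols and are not analysed here.

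The borders and the 12 gene lists were chosen with earlier results of these data known. Named genes are those within 5 kb of the 15 strict-class borders farthest from a pooled eye border or, where none is, the nearest gene; listed genes at antennal-only borders; listed genes in eye TADs cut at least 2 times, of which those of transcription factors, ligands and cohesin with *RpL15* are described; and *Dfd* and *Scr*. Other names were chosen after their values were seen. Since the same libraries made the pooled lists, no test was run. Replicates are separate pools of discs per the labels. Alternatives covered tolerance, border definition, arms, stretch, gene set, window and left-out libraries.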

Additional observations from a re-analysis of the deposited data

How the results depend on the processing

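The count of 370 antennal-only borders rests on the tolerance. It was 634 with the same position required and 217 at 25 kb, and stayed between 310 and 371 at 10 kb, without merging, with TAD starts only, on arms 2L, 2R, 3L and 3R only and within the stretch all lists cover. Of the 366 borders inside an eye TAD, 212 lay over 25 kb from its ends. The antennal libraries held 39.5 percentage points more of the antennal-only borders than the eye libraries. This was 32.1 to 46.9 points with 1 library left out, 49.6 with only antennal disc library 2 and eye disc libraries 2 and 3, and 42.2 with the replicate number as a block, the mean within numbers 2 and 3. The strict class of 57 had 65 to 107 members with 1 library left out, where fewer libraries must concur, and 158 with only those 3 libraries. It had 40 with the same position required, 55 at 10 kb and 52 within the stretch all lists cover. The gene end ratio of 0.74 lay between 0.72 and 0.78 with another window, gene set, gene position or choice of arms, and was 0.68 over pairs of libraries; the cause was not tested.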
